A study of Arabidopsis thaliana with 9 samples.

Results

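Transcripts of 6 genes of the *Arabidopsis* circadian clock and its photoperiod branch were examined in leaves of plants that overexpressed cassava CC-type glutaredoxins. The genes were *LHY* (AT1G01060), *CCA1* (AT2G46830), *TOC1* (AT5G61380), *ELF3* (AT2G25930), *GI* (AT1G22770) and *COL2* (AT3G02380). They were chosen by name, with earlier results of these data known. Each had 1 probe set on the Affymetrix ATH1 array, so 6 of the 13806 genes that could be named on the array entered. The array measures the brightness of labelled RNA bound to the probe set of a gene, given here as intensity on a linear scale. An intensity can be compared between arrays for the same gene, and it is not compared between genes.

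The 3 groups compared were 45-day-old transgenic plants in the Col-0 background, with 3 arrays each of RNA from mature leaves of plants grown under normal conditions with 12 h of light and 12 h of dark. The first carried MeGRX232-OE, called *MeGRXC15*-OE here because the methods of the study pair both names (lines 3, 9 and 12). The methods give a 35S promoter, which is active in most tissues, driving *MeGRXC15* fused to GFP, and each array of this group came from a separate homozygous line. The second carried MeGRX360-OE (lines 5, 11 and 20), a construct that the paper does not describe under this name. The third carried the empty vector pG1300 (arrays 1 to 3), and from which line each of these came is not stated outright. Both cassava transgenes have no probe set named here, so overexpression itself could not be checked on these arrays. At what hour the leaves were taken is stated for none of the groups. A difference in that hour between groups cannot be told apart here from a difference between the plants. A lower signal from whole leaves can come from fewer cells of a type or from less RNA per cell, which cannot be told apart here.

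The plant clock is a loop of repressors that act at different times of day. LHY and CCA1 are MYB transcription factors that peak at dawn and repress evening genes. The pseudo-response regulators, of which TOC1 is the evening member, repress *LHY* and *CCA1* in turn through the day and evening. ELF3 is the scaffold of the evening complex, which represses transcription at night, and GI is an evening protein that works with blue-light receptors of the ZTL family and promotes flowering under long days. COL2 is a B-box protein related to CONSTANS, and its transcript is known to peak around dawn. In leaves these genes time photosynthesis, growth and flowering. Transcript levels of all of them change over the day, so a level from 1 harvest is a point on a daily curve.

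The 3 genes known for a peak around dawn were lower, and the 3 evening genes higher, in both overexpression groups than in vector plants. *LHY* was 32.8-fold lower in *MeGRXC15*-OE and 11.7-fold lower in MeGRX360-OE, *COL2* was 26.8-fold and 4.64-fold lower, and *CCA1* 8.43-fold and 4.08-fold lower. *ELF3* was 8.42-fold higher in *MeGRXC15*-OE and 4.45-fold higher in MeGRX360-OE, *TOC1* 4.78-fold and 2.75-fold higher, and *GI* 3.45-fold and 2.34-fold higher. All 6 passed the test in both groups (limma, Benjamini-Hochberg adjusted p under 0.05 over 22746 probe sets), and for all 6 the 3 arrays of each overexpression group lay outside the range of the 3 vector arrays. Over the whole array 22% of probe sets were called in *MeGRXC15*-OE against vector, 9.22% higher and 12.8% lower, and 16.5% in MeGRX360-OE against vector, 6.74% higher and 9.72% lower. Arrays without overlap were also common, at 37.1% of probe sets in *MeGRXC15*-OE, 17% above and 20.1% below vector, and at 35.4% in MeGRX360-OE, 16.5% above and 18.9% below. The median log2 fold change over all probe sets was 0.00 in *MeGRXC15*-OE and 0.01 in MeGRX360-OE. Both comparisons use the same vector arrays, so they are not independent of each other. *GI* was named by the platform annotation. The other 5 were named through the gene ontology table of the study, which lists genes found changed in *MeGRXC15*-OE on these same arrays. The count of these 5 is therefore not independent evidence that clock genes changed. All 6, *GI* included, were chosen with earlier results of these data known.

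**Figure D1:**
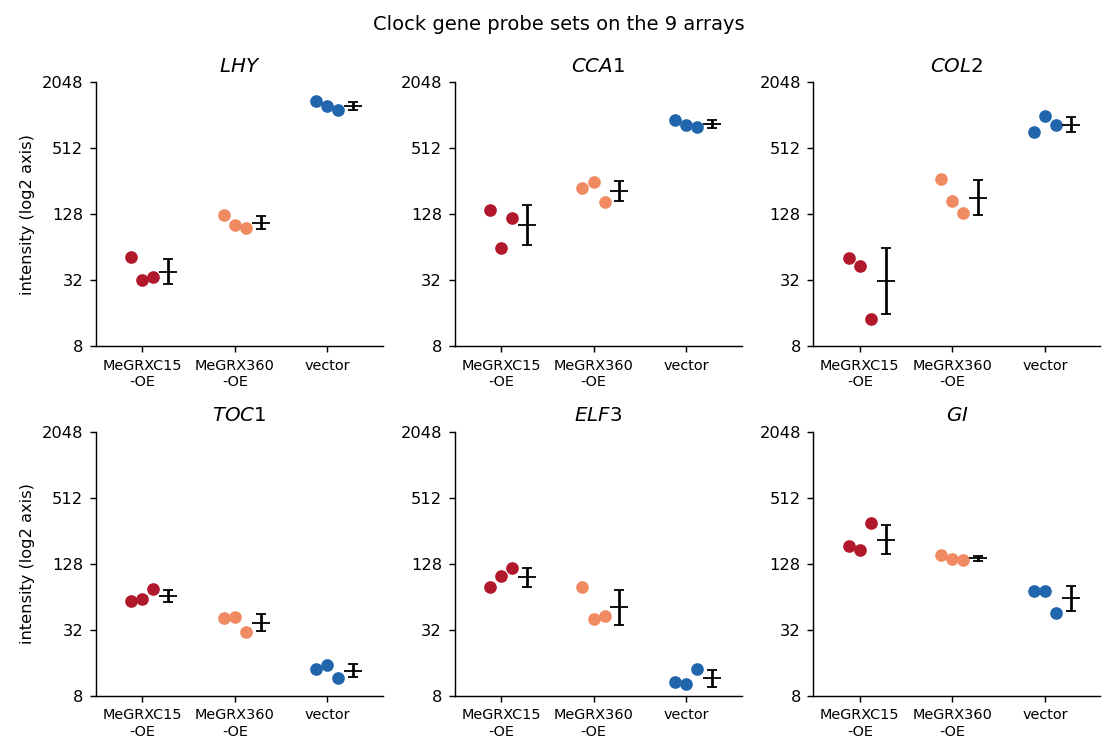
Intensity of the 6 clock genes (log2 axis) on each of the 9 arrays. Points are arrays, in the order of lines 3, 9 and 12 for *MeGRXC15*-OE, lines 5, 11 and 20 for MeGRX360-OE and arrays 1 to 3 for vector, and the black marks give the geometric mean with 1 SD of the log2 values on either side (n = 3). *LHY*, *CCA1* and *COL2* lay below the vector arrays and *TOC1*, *ELF3* and *GI* above them in both overexpression groups.

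*LHY*, with *CCA1* the MYB factor of the morning, showed the largest decrease of all 22746 probe sets in *MeGRXC15*-OE. Its intensity was 51.7, 31.8 and 34.0 in *MeGRXC15*-OE lines 3, 9 and 12, 126, 102 and 96.0 in MeGRX360-OE lines 5, 11 and 20, and 1376, 1239 and 1154 on the vector arrays. The 3 groups did not overlap, with *MeGRXC15*-OE lowest, MeGRX360-OE between and vector highest. The mean intensity was 39.2 ± 10.9 in *MeGRXC15*-OE, 108 ± 15.8 in MeGRX360-OE and 1256 ± 112 in vector (SD, n = 3 each). Against vector the log2 fold change was -5.03 in *MeGRXC15*-OE (SE 0.19, limma adjusted p = 5.52e-06) and -3.55 in MeGRX360-OE (SE 0.19, limma adjusted p = 5.00e-05). In MeGRX360-OE this was the 7th lowest of all probe sets.

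*CCA1*, the partner of LHY, had intensities of 140.4, 63.2 and 117 in *MeGRXC15*-OE lines 3, 9 and 12, 219.7, 250.3 and 166 in MeGRX360-OE lines 5, 11 and 20, and 929, 843 and 793 in vector. The groups again did not overlap and stood in the same order as for *LHY*. In *MeGRXC15*-OE the highest array was 2.22-fold above the lowest, which was line 9, also the line with the lowest *LHY*. In vector the spread was 1.17-fold. The log2 fold change against vector was -3.07 in *MeGRXC15*-OE (SE 0.28, limma adjusted p = 1.75e-04) and -2.03 in MeGRX360-OE (SE 0.28, limma adjusted p = 0.00208).

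*COL2*, the CONSTANS-like B-box gene, had intensities of 50.5, 43.4 and 14.1 in *MeGRXC15*-OE lines 3, 9 and 12, 269.5, 171 and 131 in MeGRX360-OE lines 5, 11 and 20, and 723, 1003 and 827 in vector. There was no overlap between the groups, and line 12 stood apart from the other *MeGRXC15*-OE lines. The highest array was 3.58-fold above the lowest in *MeGRXC15*-OE, 2.06-fold in MeGRX360-OE and 1.39-fold in vector. *COL2* was the 3rd lowest probe set in *MeGRXC15*-OE against vector, with a log2 fold change of -4.75 (SE 0.46, limma adjusted p = 2.23e-04), and had -2.21 in MeGRX360-OE (SE 0.46, limma adjusted p = 0.0124). The call in MeGRX360-OE held in 15 of 17 other settings, among them the fit with only the 6 arrays compared (limma adjusted p = 0.00308). It was lost without MeGRX360-OE line 20 (log2 fold change -1.98, limma adjusted p = 0.0509) and without vector array 2 (-2.09, limma adjusted p = 0.0510).

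*TOC1*, the evening repressor of *LHY* and *CCA1*, had intensities of 59.0, 61.7 and 75.1 in *MeGRXC15*-OE lines 3, 9 and 12, 40.7, 41.7 and 30.5 in MeGRX360-OE lines 5, 11 and 20, and 14.1, 15.2 and 11.7 in vector. The groups did not overlap, with the order turned round from that of *LHY*. The mean was 65.3 ± 8.63 in *MeGRXC15*-OE, 37.7 ± 6.23 in MeGRX360-OE and 13.6 ± 1.78 in vector (SD, n = 3 each). The log2 fold change against vector was 2.26 in *MeGRXC15*-OE (SE 0.16, limma adjusted p = 6.72e-05) and 1.46 in MeGRX360-OE (SE 0.16, limma adjusted p = 9.51e-04).

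*ELF3*, the scaffold of the evening complex, had intensities of 78.2, 99.96 and 116 in *MeGRXC15*-OE lines 3, 9 and 12, 78.4, 40.3 and 42.4 in MeGRX360-OE lines 5, 11 and 20, and 10.6, 10.2 and 14.1 in vector. Every overexpression array was above every vector array, while MeGRX360-OE line 5 lay among the *MeGRXC15*-OE lines. The log2 fold change against vector was 3.07 in *MeGRXC15*-OE (SE 0.27, limma adjusted p = 1.56e-04) and 2.15 in MeGRX360-OE (SE 0.27, limma adjusted p = 0.00140). *TOC1* and *ELF3* were dim in vector plants, where their probe sets stood between the 28.8th and 38.5th percentile of each array, and the size of their change depended on how dim values were treated. With 16 added to each value before log2, *ELF3* had 2.04 in *MeGRXC15*-OE and 1.30 in MeGRX360-OE, and *TOC1* had 1.45 in *MeGRXC15*-OE and 0.85 in MeGRX360-OE, all 4 still called.

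*GI*, the evening gene named by the platform annotation, had intensities of 188, 171 and 301 in *MeGRXC15*-OE lines 3, 9 and 12, 154, 141 and 139 in MeGRX360-OE lines 5, 11 and 20, and 72.2, 71.9 and 45.6 in vector. The groups did not overlap, and line 12 was again the farthest from vector. The log2 fold change was 1.79 in *MeGRXC15*-OE (SE 0.24, limma adjusted p = 0.00109) and 1.23 in MeGRX360-OE (SE 0.24, limma adjusted p = 0.0101). The 3 MeGRX360-OE lines were close together, 1.10-fold from lowest to highest, against 1.76-fold in *MeGRXC15*-OE and 1.58-fold in vector.

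**Figure D2:**
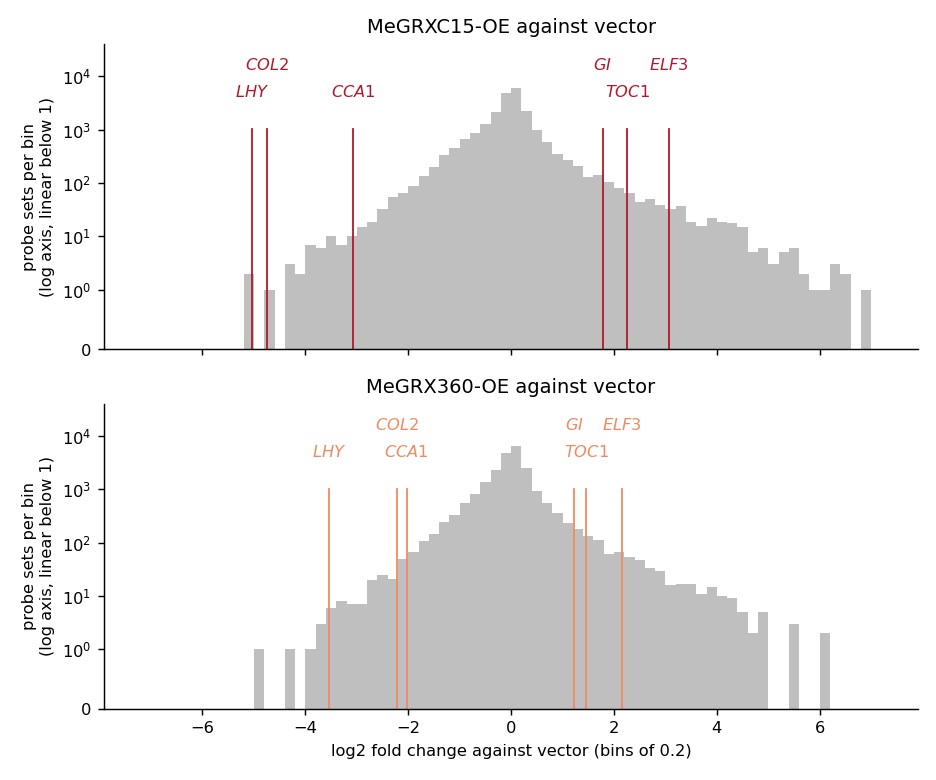
Where the 6 clock genes stood among all 22746 probe sets. Bars count probe sets (log axis, linear below 1) in bins of the log2 fold change against vector, and coloured lines mark the 6 genes, in *MeGRXC15*-OE above and MeGRX360-OE below. *LHY* and *COL2* lay at the far left end in *MeGRXC15*-OE, at -5.03 and -4.75, while the 3 evening genes, between 1.79 and 3.07, lay inside the right flank.

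The arrays of a group were not alike across the 6 genes. In *MeGRXC15*-OE, line 12 had the highest *TOC1*, *ELF3* and *GI* and the lowest *COL2*, and line 9 had the lowest *LHY* and *CCA1*. In MeGRX360-OE, line 5 had the highest *LHY*, *COL2*, *ELF3* and *GI*. Its dawn genes were therefore nearest to vector for *LHY* and *COL2*, while its evening genes were farthest from vector for *ELF3* and *GI*. The ratio of the 3′ to the 5′ probe set of the control gene GAPDH, a sign of RNA quality, was 16.1 in line 5, 9.37 and 9.57 in the other MeGRX360-OE lines, 10.4 to 11.1 over the *MeGRXC15*-OE lines and 8.96 to 10.5 over the vector arrays. The signal of 25S ribosomal RNA lay between 430 and 616 in *MeGRXC15*-OE, between 853 and 1073 in MeGRX360-OE, and between 279 and 350 in vector plants. The part of these signals in the clock gene differences was not tested, and without line 5 all 6 genes were still called in MeGRX360-OE against vector. Array medians were 28.1 to 30.2, correlations of log2 values were 0.967 to 0.991 within a group and 0.921 to 0.982 between groups, and the leaf gene *CA1*, a chloroplast carbonic anhydrase, stood at or above the 94.6th percentile on every array. Its intensity lay between 595 and 1860.4 in *MeGRXC15*-OE, between 1911 and 4657 in MeGRX360-OE, and between 2084 and 4135 in vector plants. Its part in the clock gene differences was not tested. The other leaf genes planned for this check had no probe set under the names sought, so the check rests on *CA1* alone.

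Whether the clock genes differed between the overexpression groups was tested directly. Over the whole array only 0.145% of probe sets were called in *MeGRXC15*-OE against MeGRX360-OE, 0.0572% higher and 0.0879% lower. *LHY* was among them. It was 2.81-fold lower in *MeGRXC15*-OE than in MeGRX360-OE, a log2 fold change of -1.49 (95% interval -1.93 to -1.05, limma adjusted p = 0.0482). This call stood just inside the threshold. It was lost without *MeGRXC15*-OE line 12 (adjusted p = 0.0922), without MeGRX360-OE line 11 (0.162) or line 20 (0.126), and without vector array 1 (0.0827), 2 (0.0966) or 3 (0.0678), while the log2 fold change over those fits stayed between -1.57 and -1.40. Leaving out a vector array leaves both means as they were.

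The other 5 genes did not pass the test between the overexpression groups, and the intervals do not show that the groups were alike. *COL2* had the largest difference of the 6, 5.79-fold lower in *MeGRXC15*-OE, with a log2 fold change of -2.53 (95% interval -3.58 to -1.49, limma adjusted p = 0.0779), the 5th lowest of all probe sets. *CCA1* had -1.04 (-1.68 to -0.41, limma adjusted p = 0.167). Of the evening genes, *ELF3* was at 0.92 (0.31 to 1.53, limma adjusted p = 0.196), *TOC1* at 0.80 (0.43 to 1.17, limma adjusted p = 0.0968), and *GI* at 0.56 (0.01 to 1.11, limma adjusted p = 0.359). All 6 differences pointed away from vector, that is, *MeGRXC15*-OE was farther from vector than MeGRX360-OE. For the 5 named through the study's gene ontology table this order is partly built in, because that table lists genes found changed in *MeGRXC15*-OE. More of all probe sets were also called against vector in *MeGRXC15*-OE, 22% beside 16.5% in MeGRX360-OE. The arrays of both overexpression groups did not overlap for 5 of the 6, *ELF3* being the exception, against 16.3% of all probe sets, 7.72% above and 8.58% below. For *GI* the difference leaned on line 12, without which it was 0.31.

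**Figure D3:**
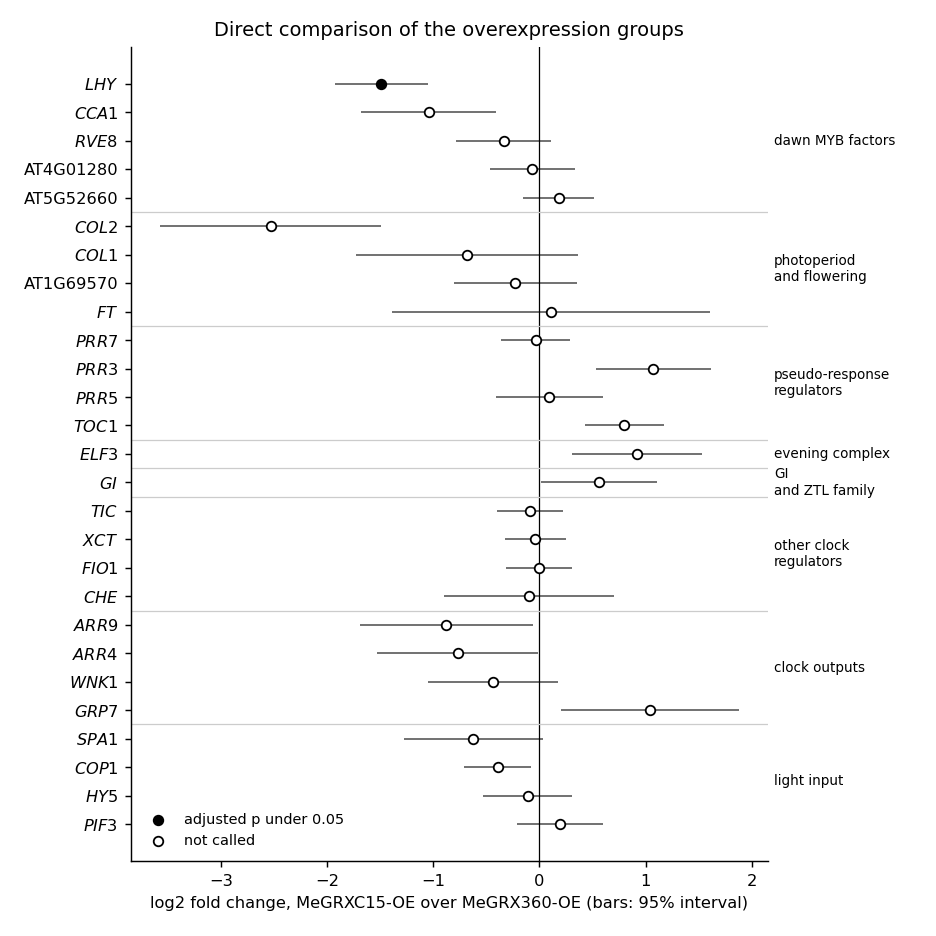
Log2 fold change of *MeGRXC15*-OE over MeGRX360-OE for the 27 clock genes with a named probe set, with 95% intervals from limma (n = 3 arrays a group). A filled point marks adjusted p under 0.05, which is *LHY* alone, at -1.49. *COL2* lay farthest from 0, at -2.53, with a wide interval.

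The same comparisons were read for a list of 70 clock, light input and output genes, of which 27 had a named probe set, the 6 above included, and 43 had none. In *MeGRXC15*-OE against vector 9 of the 27 were called higher, 13 lower and 5 not called, beside 9.22% of all probe sets higher and 12.8% lower. In MeGRX360-OE against vector 8 were called higher, 11 lower and 8 not called, beside 6.74% of all probe sets higher and 9.72% lower. Of the 20 genes named through the gene ontology table of the study, 19 were called in *MeGRXC15*-OE and 16 in MeGRX360-OE. That table holds genes the study found changed in *MeGRXC15*-OE. The count of 19 was thus close to fixed in advance and cannot be set against the 16. Of the 7 named by the platform annotation, 3 were called in each group, *GI* higher and the MYB loci AT5G52660 and AT4G01280 lower. Without *GI* this was 2 of 6 in each group, beside 22% of all probe sets called in *MeGRXC15*-OE and 16.5% in MeGRX360-OE. *TIC*, *XCT*, *FIO1* and AT1G69570 were not called in either group, with log2 fold changes between -0.25 and 0.27.

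**Figure D4:**
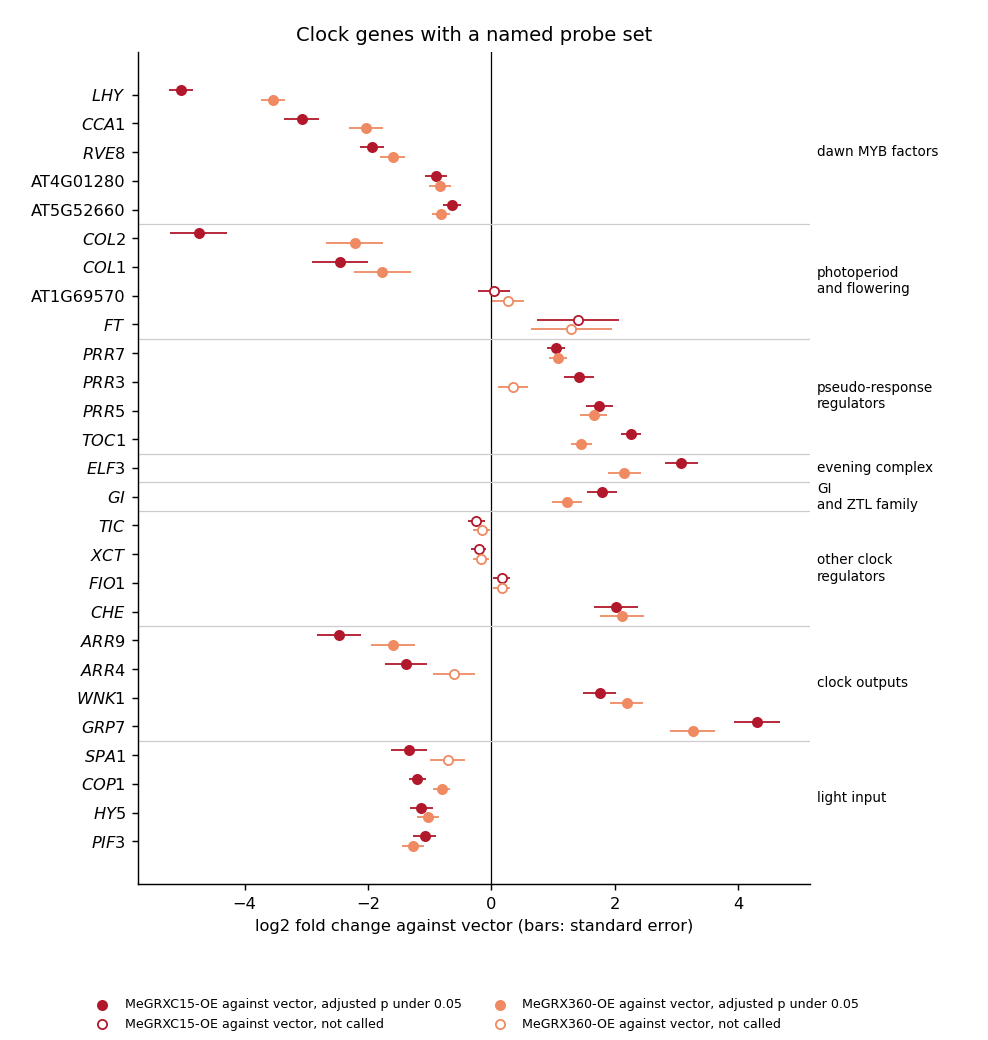
Log2 fold change against vector of the 27 clock genes with a named probe set, by role, in *MeGRXC15*-OE and MeGRX360-OE (bars, standard error from limma, n = 3 arrays a group). Filled points have adjusted p under 0.05. The MYB factors of the dawn group lay left of 0 and the pseudo-response regulators right of 0 in both groups. The pseudo-response regulators shown were all named through the study's gene ontology table of changed genes, and so were *LHY*, *CCA1* and *RVE8*.

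Of the 10 MYB genes of the dawn group on the list, 5 had a named probe set, and these 5, with *LHY* and *CCA1* among them, were called lower in both groups. Of all probe sets 12.8% were called lower in *MeGRXC15*-OE and 9.72% in MeGRX360-OE. *LHY*, *CCA1* and *RVE8* were named through the table of changed genes, and only AT4G01280 and AT5G52660 by the platform annotation. *RVE8*, an activator of evening genes, had a log2 fold change of -1.94 in *MeGRXC15*-OE (SE 0.20, limma adjusted p = 2.78e-04) and -1.60 in MeGRX360-OE (limma adjusted p = 0.00128). Its probe set was at 4.21 to 5.88 in *MeGRXC15*-OE and 5.49 to 7.36 in MeGRX360-OE, near the dim end of the arrays, and at 14.6 to 21.4 in vector. The size of its change depended on how dim values were treated, and with 16 added to each value it was -0.74 in *MeGRXC15*-OE and -0.65 in MeGRX360-OE, both still called. AT4G01280 and AT5G52660 differed less, with -0.90 and -0.64 in *MeGRXC15*-OE and -0.83 and -0.82 in MeGRX360-OE. In *MeGRXC15*-OE the call of AT5G52660 was lost without vector array 1 (-0.57, limma adjusted p = 0.0536) or 2 (-0.57, limma adjusted p = 0.0597). In MeGRX360-OE that of AT4G01280 was lost without vector array 1 (-0.79, limma adjusted p = 0.0516).

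Of the pseudo-response regulators, the family of TOC1, *PRR7*, *PRR5* and *PRR3* were measured besides. They were named, like *TOC1*, through the table of changed genes, so their calls are not independent evidence of a change. *PRR7*, a repressor of *LHY* and *CCA1* by day, had 1.04 in *MeGRXC15*-OE and 1.08 in MeGRX360-OE, and *PRR5*, which follows it in the afternoon, 1.75 and 1.65. *PRR3*, which stabilises TOC1, had intensities of 27.2, 21.2 and 35.6 in *MeGRXC15*-OE, 18.3, 11.015 and 10.9 in MeGRX360-OE and 10.7, 9.43 and 10.6 in vector. It was called in *MeGRXC15*-OE (1.42, limma adjusted p = 0.00318) and not in MeGRX360-OE (0.35, limma adjusted p = 0.401), where line 5 stood above the other lines. The difference between both overexpression groups was 1.07 (95% interval 0.53 to 1.62) and missed the threshold (limma adjusted p = 0.118), though without line 5 it was called (1.32, limma adjusted p = 0.0449). *PRR5* and *PRR3* were dim in vector plants, and with 16 added to each value *PRR5* had 0.79 in *MeGRXC15*-OE and 0.73 in MeGRX360-OE, both called, and *PRR3* 0.73 in *MeGRXC15*-OE, called, and 0.16 in MeGRX360-OE, not called. *CHE*, a TCP factor that represses *CCA1*, was also named through that table. It was higher in both groups, with 2.02 in *MeGRXC15*-OE and 2.12 in MeGRX360-OE (SE 0.35 each). Its vector arrays lay far apart, at 36.2, 72.3 and 96.4.

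In the photoperiod branch, *COL1*, the nearest relative of *COL2* on the list, had intensities of 213, 223 and 58.4 in *MeGRXC15*-OE lines 3, 9 and 12, 289.9, 208 and 192 in MeGRX360-OE and 888, 764 and 673 in vector. As with *COL2*, line 12 was the lowest array. Its log2 fold change was -2.45 in *MeGRXC15*-OE (SE 0.46, limma adjusted p = 0.00535) and -1.77 in MeGRX360-OE (SE 0.46, limma adjusted p = 0.0315), the second of which was lost without MeGRX360-OE line 11 or 20 or any 1 vector array (limma adjusted p of 0.0615 to 0.103). *FT*, the mobile flowering signal downstream of CONSTANS, was at 7.39, 23.4 and 42.4 in *MeGRXC15*-OE, 7.78, 31.8 and 23.7 in MeGRX360-OE, and 7.88, 7.57 and 6.67 in vector. Lines 3 and 5 were at the vector level and the other 4 lines above it, and *FT* was not called in either group, with 1.40 (limma adjusted p = 0.181) in *MeGRXC15*-OE and 1.30 (limma adjusted p = 0.241) in MeGRX360-OE. With 16 added to each value it was at 0.69 in *MeGRXC15*-OE and 0.61 in MeGRX360-OE, not called. Without line 3 it was called in *MeGRXC15*-OE (2.0995, limma adjusted p = 0.0376). Both *COL1* and *FT* were named through the table of changed genes, so a call of either is not independent evidence of a change.

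Among outputs of the clock, *GRP7*, an RNA-binding protein that peaks in the evening, was at 1605, 2253 and 2872 in *MeGRXC15*-OE lines 3, 9 and 12, 1958, 647 and 945 in MeGRX360-OE lines 5, 11 and 20, and 116, 116 and 101 in vector. No overexpression array came near the vector arrays, and line 5 was again the highest of its group, as for *ELF3* and *GI*. The log2 fold change was 4.30 in *MeGRXC15*-OE (SE 0.37, limma adjusted p = 1.39e-04) and 3.26 in MeGRX360-OE (SE 0.37, limma adjusted p = 9.51e-04). *WNK1*, which encodes a kinase of PRR3, was higher, with 1.75 in *MeGRXC15*-OE and 2.19 in MeGRX360-OE. The response regulator genes of cytokinin signalling, *ARR9* and *ARR4*, had -2.47 and -1.38 in *MeGRXC15*-OE, both called, and -1.59 and -0.61 in MeGRX360-OE, where *ARR4* was not called (limma adjusted p = 0.282). The call of *ARR4* in *MeGRXC15*-OE was lost without vector array 1 (limma adjusted p = 0.0579) or 3 (0.0501), and that of *ARR9* in MeGRX360-OE without line 5 (0.0539), line 20 (0.0664) or vector array 3 (0.0570). *GRP7*, *WNK1*, *ARR9* and *ARR4* were all named through the table of changed genes, so their calls are not independent evidence of a change.

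Of the 13 light input genes on the list, 4 had a named probe set, all 4 through the table of changed genes. These 4 were called lower in *MeGRXC15*-OE, where 12.8% of all probe sets were, and because of how they were named this count is not independent evidence of a direction. *COP1*, a ubiquitin ligase that degrades light-signalling proteins in the dark and acts with ELF3 on GI, had -1.20 in *MeGRXC15*-OE and -0.81 in MeGRX360-OE, and its partner *SPA1* had -1.33 and, not called, -0.71. *HY5*, a bZIP activator in light, had -1.14 in *MeGRXC15*-OE and -1.03 in MeGRX360-OE, and *PIF3*, a phytochrome-interacting repressor, -1.08 and -1.28. Over the 27 genes, *LHY* alone passed the test between the overexpression groups, and the arrays of 7 did not overlap, beside 16.3% of all probe sets. Of these 7, 5 were among the 6 genes described first and 2 among the other 21, *PRR3* and *COP1*.

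**Figure D5:**
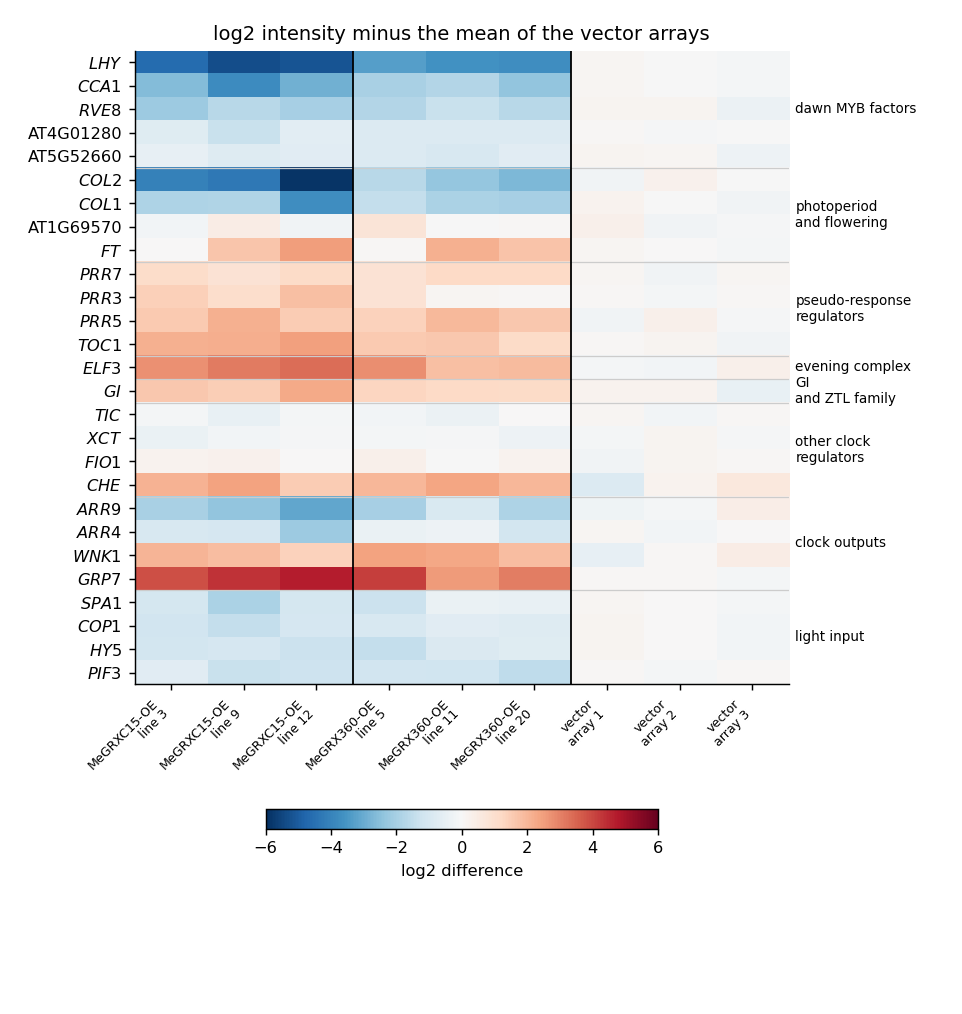
Log2 intensity of the 27 clock genes on each array, minus the mean of the 3 vector arrays (colour scale, log2 units), in columns for the 3 lines of *MeGRXC15*-OE, the 3 of MeGRX360-OE and the 3 vector arrays. *LHY*, *CCA1*, *COL2* and *COL1* form the darkest blue rows and *GRP7* and *ELF3* the darkest red ones. Line 12 is the extreme column for *COL2*, at -5.90, and line 5 resembles *MeGRXC15*-OE for *ELF3*, at 2.77.

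Genes whose profile over the 9 arrays was most like that of each clock gene were sought among 2086 probe sets to which the platform annotation gives 1 gene and that had an SD of at least 0.5, by Pearson's r of log2 values. The arrays fall into 3 groups that enter together, so r includes the differences between groups, and no test was made. *LHY* was followed most closely by AT5G47620 (r = 0.992), AT5G17600 (0.991) and AT5G20220 (0.986), and *CCA1* by AT5G20220 (0.989), AT5G17600 (0.988) and AT2G24280 (0.986). The loci AT5G17600 and AT5G20220 were thus shared by both MYB genes. *COL2* had AT2G41250 (0.985), AT1G14710 (0.983) and AT4G28080 (0.983). *TOC1* had AT1G52720 (0.980), AT4G16146 (0.979) and AT4G27654 (0.976), *ELF3* had AT3G04010 (0.993), AT2G36410 (0.991) and AT1G27300 (0.988), and *GI* had *OPCL1* (0.990), *SRC2* (0.984) and AT4G12070 (0.979). AT5G47620, nearest to *LHY* in profile, had intensities averaging 115 in *MeGRXC15*-OE, 165 in MeGRX360-OE and 350 in vector, a log2 fold change of -1.60 in *MeGRXC15*-OE and -1.09 in MeGRX360-OE. AT1G52720, nearest to *TOC1*, averaged 283 in *MeGRXC15*-OE, 133 in MeGRX360-OE and 46.6 in vector. Both loci were picked for their likeness on these same arrays, so their differences between groups are not separate evidence.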

How the data were processed

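Total RNA from mature leaves was hybridised to 9 Affymetrix ATH1 arrays. The authors deposited linear intensities for 22810 probe sets. RMA is named in the submitters' processing notes, with no version or settings in the sources used here. Log2 was taken, 64 control probe sets were left out, and 22746 probe sets were fitted with limma 3.58.1 (R 4.3.3), a mean for each group and 1 shared spread, with p-values adjusted by Benjamini-Hochberg over all of them. The number of arrays limits the precision. Each p-value weighs a difference of means against the spread between arrays within groups, shared by the 3 groups. The platform annotation named 13513 probe sets (503 listed with several genes were not used), and probe set and gene pairs in the study's gene ontology table named 456 others. Of 105 named by both, 100 had the same locus. The 6 genes and the clock list were chosen with earlier results of these data known. Genes named were the 6, up to 4 of each role with the largest change in *MeGRXC15*-OE, others a count turns on, and the 3 nearest in profile to each of the 6. The fit was tested on simulated data. Python 3.11.15 with pandas 2.3.3 joined the tables. Alternatives were a replicate block, quantile normalization, median centring, a filter on dim probe sets, 16 added before log2, an intensity trend, array weights, only the 6 arrays compared, and leaving out each array.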

Additional observations from a re-analysis of the deposited data

How the results depend on the processing

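Besides the setting reported, 17 others were tried. Against vector, the 6 clock genes kept their direction and call in both overexpression groups, except *COL2* in MeGRX360-OE, whose log2 fold change ran from -2.50 to -1.98 when single arrays were left out and which missed the threshold without line 20 or vector array 2. Between the overexpression groups *LHY* missed it with 16 added to each value (-1.18, limma adjusted p = 0.0677), with only the 6 arrays compared (-1.49, limma adjusted p = 0.156) and in 6 of 9 fits without 1 array (over all 9, -1.71 to -1.36). With array quality weights *TOC1* (0.84, limma adjusted p = 0.0379) and *COL2* (-1.94, limma adjusted p = 0.0390) passed it, *CCA1* was at -0.69, and the counts over the clock list were 2 higher and 2 lower, against 0 and 1. The count lower was 0 with 16 added and with only the 6 arrays, and without 1 array both counts were 0 to 1. Over all probe sets this comparison had 13 higher and 20 lower, but 231 and 299 with array quality weights, 1 and 4 with only the 6 arrays, and 2 to 112 and 2 to 93 without 1 array. Against vector, the list counts without 1 array were 9 to 10 higher and 11 to 13 lower in *MeGRXC15*-OE, and 8 higher and 8 to 11 lower in MeGRX360-OE. Leaving out the dimmest 40% of probe sets removed *RVE8*, *PRR5*, *PRR3*, *FT* and *FIO1*. Arrays with the same replicate number did not deviate together (r from -0.21 to 0.27, over 0.1 in 3 of 9 pairs), so numbers were not taken to pair samples. A replicate block changed no call of the 6 genes (*LHY* between the overexpression groups -1.49, limma adjusted p = 0.0389), and the list counts were as without it, at 9 and 13, 8 and 11, and 0 and 1.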
